A study of Mus musculus with 9 samples.

Results

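The genes of the proteasome and of its assembly were followed in mouse (Mus musculus) jejunum. Rows of the count table were taken by symbol, as every gene starting with Psma, Psmb, Psmc, Psmd, Psme, Psmf or Psmg, leaving out the 3 immunoproteasome subunits Psmb8, Psmb9 and Psmb10. This gave 47 of 21868 genes. They comprise 8 alpha-ring and 8 beta-ring subunits of the core particle, 6 ATPases and 11 non-ATPase subunits of the regulatory cap, 6 activators and inhibitors (with the inhibitor protein PI31, Psmf1), 7 assembly factors, and Psmc3ip, which carries the prefix by name only and encodes a partner protein of meiotic recombination, not a proteasome part.

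RNA was sequenced in bulk from 5 cm pieces of jejunum, opened along their length, so that each library can hold every cell layer of the piece. Mice were on TPN (total parenteral nutrition, in textbook use the feeding of nutrients into a vein), on starvation, or sham treated, each for 24 h, with 3 libraries per group. Genotype, strain, sex and age are not given in the labels. The labels call the replicates biological without saying that each is a separate mouse, so p-values measure the spread between these samples. In bulk tissue, fewer cells of a type and less RNA per cell cannot be told apart.

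The proteasome degrades proteins that carry chains of ubiquitin. Its core is a barrel of stacked rings: alpha subunits form the outer rings and the gate, and beta subunits form the inner rings, which hold the catalytic sites. The cap recognises ubiquitin, removes it, and uses a ring of ATPases to unfold the substrate and thread it into the core. Other activators can take the place of the cap, among them the PA28 ring of Psme1 and Psme2, which is induced by interferon and linked to the making of peptides for antigen presentation, and dedicated chaperones put the rings together. The villus epithelium of the jejunum is renewed continuously and makes large amounts of protein.

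Promoter sequences were read for the members to show letters that the subunit genes share. RefSeq windows of 250 bases before to 50 after a gene's start (GRCm38.p6) matched 39 of the 47 members. Both strands were searched for 3 short patterns that do not contain one another: TGACNNNGC, the core of the antioxidant response element read by Nfe2l1 and Nfe2l2; CCGGAAG, a motif of ETS factors; and CCAAT. The ETS motif or its reverse complement was present in 15 of the 39 members (38.5%), against 9.93% of all 27025 genes with a window and 18.1% of the 11367 such genes that were tested for expression. TGACNNNGC was present in 6 (15.4%), against 14% of all genes and 16.6% of the tested ones. CCAAT was present in 14 (35.9%), against 41.1% and 42.5%. The 100 bases before the start are shown for 6 members named in the results below: 2 catalytic beta subunits with TGACNNNGC, 3 genes with CCGGAAG, and Psmc4, the subunit with the smallest adjusted p, which held none of the 3 patterns. Of the 6, Psmb5 passed in no comparison in all 9 libraries (edgeR, DESeq2 or limma voom). Psmc3ip, counted among the 15 members with the ETS motif, is no proteasome part. Capitals mark the matches, on either strand.
Psmb5: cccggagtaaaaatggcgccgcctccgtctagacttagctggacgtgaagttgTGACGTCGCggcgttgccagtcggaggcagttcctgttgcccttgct
Psmb6: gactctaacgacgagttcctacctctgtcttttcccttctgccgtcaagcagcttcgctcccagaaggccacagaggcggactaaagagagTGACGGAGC
Psmc2: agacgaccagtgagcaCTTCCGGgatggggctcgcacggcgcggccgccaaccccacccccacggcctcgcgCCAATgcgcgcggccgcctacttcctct
Psmd2: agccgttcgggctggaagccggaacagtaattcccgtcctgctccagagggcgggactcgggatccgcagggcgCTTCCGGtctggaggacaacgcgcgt
Psmc3ip: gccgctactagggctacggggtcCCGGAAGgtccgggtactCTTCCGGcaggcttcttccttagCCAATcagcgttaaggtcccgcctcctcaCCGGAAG
Psmc4: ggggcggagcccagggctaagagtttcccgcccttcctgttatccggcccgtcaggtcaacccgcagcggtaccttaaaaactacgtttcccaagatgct
These stretches lie at chr14:54617996-54618095 on the minus strand (Psmb5), chr11:70525257-70525356 on the plus strand (Psmb6), chr5:21785175-21785274 on the plus strand (Psmc2), chr16:20651552-20651651 on the plus strand (Psmd2), chr11:101095436-101095535 on the minus strand (Psmc3ip) and chr7:28050093-28050192 on the minus strand (Psmc4), all on GRCm38.p6. In Psmb5 the TGACNNNGC match began at position -47 from the start, and in Psmb6 at position -9. Psmc3ip held 3 matches to CCGGAAG.

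Total counts ran from 7779877 to 12084278 per library, and 1 read was worth 0.0798 to 0.119 CPM (counts of a gene scaled to the library's size with TMM factors, the level given throughout). Of the 47 members, 45 passed the filter on low counts. Psma8, an alpha subunit of the testis, had 8 counts in all TPN libraries together, 3 in starvation and 2 in sham, and Psmb11, a beta subunit of the thymus, had 0, 8 and 1, so neither was tested. Sham replicate 2 and starvation replicate 3 stood apart in markers of smooth muscle or of the villus tip. Tissue markers were lists of 8 genes each, with every gene in the table and none at 0 throughout. Summed smooth muscle markers were 411 to 1172 CPM in TPN, 674 to 1313 CPM in starvation, and 1082 and 1164 CPM in sham with 8855 CPM in sham replicate 2. Summed villus tip markers were 19111 to 23837 CPM in TPN, 14228 and 23569 CPM in starvation with 74414 CPM in starvation replicate 3, and 24140 and 27581 CPM in sham with 57684 CPM in sham replicate 2. Results are therefore also given without these 2 libraries.

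After 24 h of TPN the summed levels of the core and of the cap were below those of sham jejunum, and the summed level of the assembly factors was not. Summed over the 47 members, the level was 1226 ± 30.4 CPM in TPN, 1323 ± 143 CPM in starvation and 1726 ± 88.1 CPM in sham (SD, n = 3 each). The TPN and starved libraries, at 1191 to 1485 CPM, were all below the sham libraries, at 1656.5 to 1825 CPM. The cap alone, ATPases and non-ATPases together, summed to 513, 520.2 and 517 CPM in TPN, to 533, 543 and 629.6 CPM in starvation and to 729, 804 and 756 CPM in sham. The core summed to 298, 265 and 303 CPM in TPN, to 294, 301 and 364 CPM in starvation and to 387, 447 and 407 CPM in sham. Neither sum overlapped between sham and the other groups. Sums are led by the most abundant genes: without Psmb4 the core summed to 215 ± 15.4 CPM in TPN, 243 ± 17.8 CPM in starvation and 276 ± 16.9 CPM in sham (SD, n = 3 each). The median log2 CPM of the tested core subunits was not lower, at 4.11 ± 0.11 in TPN, 4.29 ± 0.08 in starvation and 4.01 ± 0.09 in sham, while that of the cap was 4.80 ± 0.04 in TPN, 4.93 ± 0.12 in starvation and 5.34 ± 0.03 in sham. The assembly factors summed to 78.5, 69.0 and 71.1 CPM in TPN, to 72.3, 76.2 and 78.3 CPM in starvation and to 70.4, 66.1 and 64.5 CPM in sham, so that TPN and sham overlapped and the 3 starved libraries lay above the 3 sham libraries. Psmg3 had the highest mean among them, at 26.9 CPM in TPN, 28.5 CPM in starvation and 17.7 CPM in sham. Unlike the sum, the median log2 CPM of the assembly factors was highest in sham. It was 3.58 ± 0.10 in TPN, 3.52 ± 0.11 in starvation and 3.71 ± 0.09 in sham (SD, n = 3 each).

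**Figure D1:**
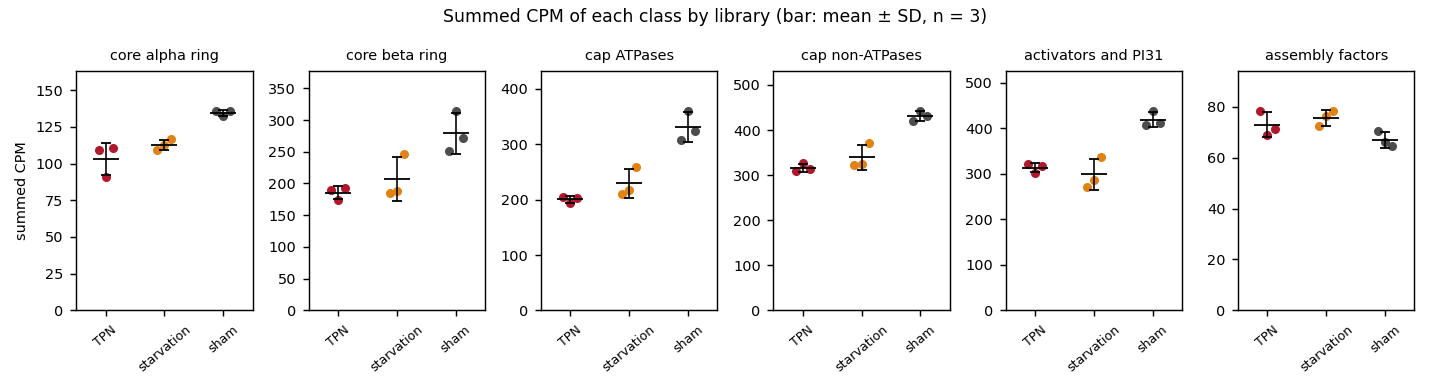
Summed CPM (vertical axis, from 0) of the tested and untested genes of each class, 1 point per library, with mean ± SD over 3 libraries. In the core rings, the cap ATPases, the cap non-ATPases and the activators the 3 sham points lie highest, while the assembly factors stay between 64.5 and 78.5 CPM in every library.

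In the test of TPN against sham (edgeR's quasi-likelihood test over 14668 genes, Benjamini-Hochberg adjusted p under 0.05), 11 of the 45 tested members fell, beside 5.12% of all genes tested. None rose, beside 3.48% of all genes. Psmc3ip was among the 11, and of the 44 tested proteasome parts without it 10 fell. At an unadjusted p under 0.05, 20 members were lower and 3 higher in TPN, where 15.1% and 11.8% of genes were. DESeq2 called 15 lower and 1 higher, and limma voom 12 lower and 0 higher. Over the whole table, both directions together, DESeq2 called 2421 genes, limma voom 1247 and edgeR 1261. The edgeR shares are therefore not the background of the DESeq2 counts. The 3 TPN libraries lay below the 3 sham libraries without overlap for 23 members, beside 21.4% of genes, and above them for 4, Psmb2, Psme3, Psmg2 and Psmg3, beside 21.3% of genes. The median log2 fold change of the members was -0.36, with 32 of 45 below 0, while the median over all genes was -0.02. By class, the median was -0.42 in the alpha ring (0 of 7 fell), -0.24 in the beta ring (2 of 7 fell), -0.68 in the cap ATPases (4 of 6 fell), -0.42 in the cap non-ATPases (1 of 11 fell), -0.63 in the activators and PI31 (3 of 6 fell, 2 of them close copies) and 0.12 in the assembly factors (0 of 7 fell). All 17 cap subunits were below 0 in the fit, with a median of -0.56, although with library totals alone Psmd6 and Psmd11 were above 0. The assembly median was -0.11 without TPN replicate 1 and -0.03 without sham replicate 3, so its sign rested on single libraries. With library totals in place of TMM factors the median of all genes in TPN against sham was 0.17 and that of the members -0.19, and the class medians kept their signs under this and 2 other scalings.

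In starvation against sham, 5 of the 45 members fell, beside 1.14% of all genes tested, and none rose, beside 2.55% of genes. At an unadjusted p under 0.05, 15 members were lower and 4 higher in starvation, where 10.4% and 13% of genes were. DESeq2 called 10 lower and 1 higher, and limma voom 5 lower and 0 higher. Over the whole table DESeq2 also called more genes than edgeR, as given in the closing section, so the edgeR shares are not its background. The starved libraries lay below sham without overlap for 15 members, beside 11.2% of genes, and above sham for 5, Psma5, Psma6, Psmb2, Psmb7 and Psmg3, beside 13.9% of genes. The median log2 fold change was -0.18 over the members and -0.01 over all genes. By class it was 0.05 in the alpha ring, 0.07 in the beta ring, -0.54 in the cap ATPases, -0.22 in the cap non-ATPases, -0.35 in the activators and PI31 and 0.17 in the assembly factors. The ring medians in starvation were near 0, and that of the alpha ring was -0.04 without starvation replicate 3, that of the beta ring -0.06 without starvation replicate 1 and -0.05 without sham replicate 1, and that of the assembly factors -0.01 without starvation replicate 2. This comparison and the one with TPN share the 3 sham libraries, so the members that fell in both are not independent evidence.

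**Figure D2:**
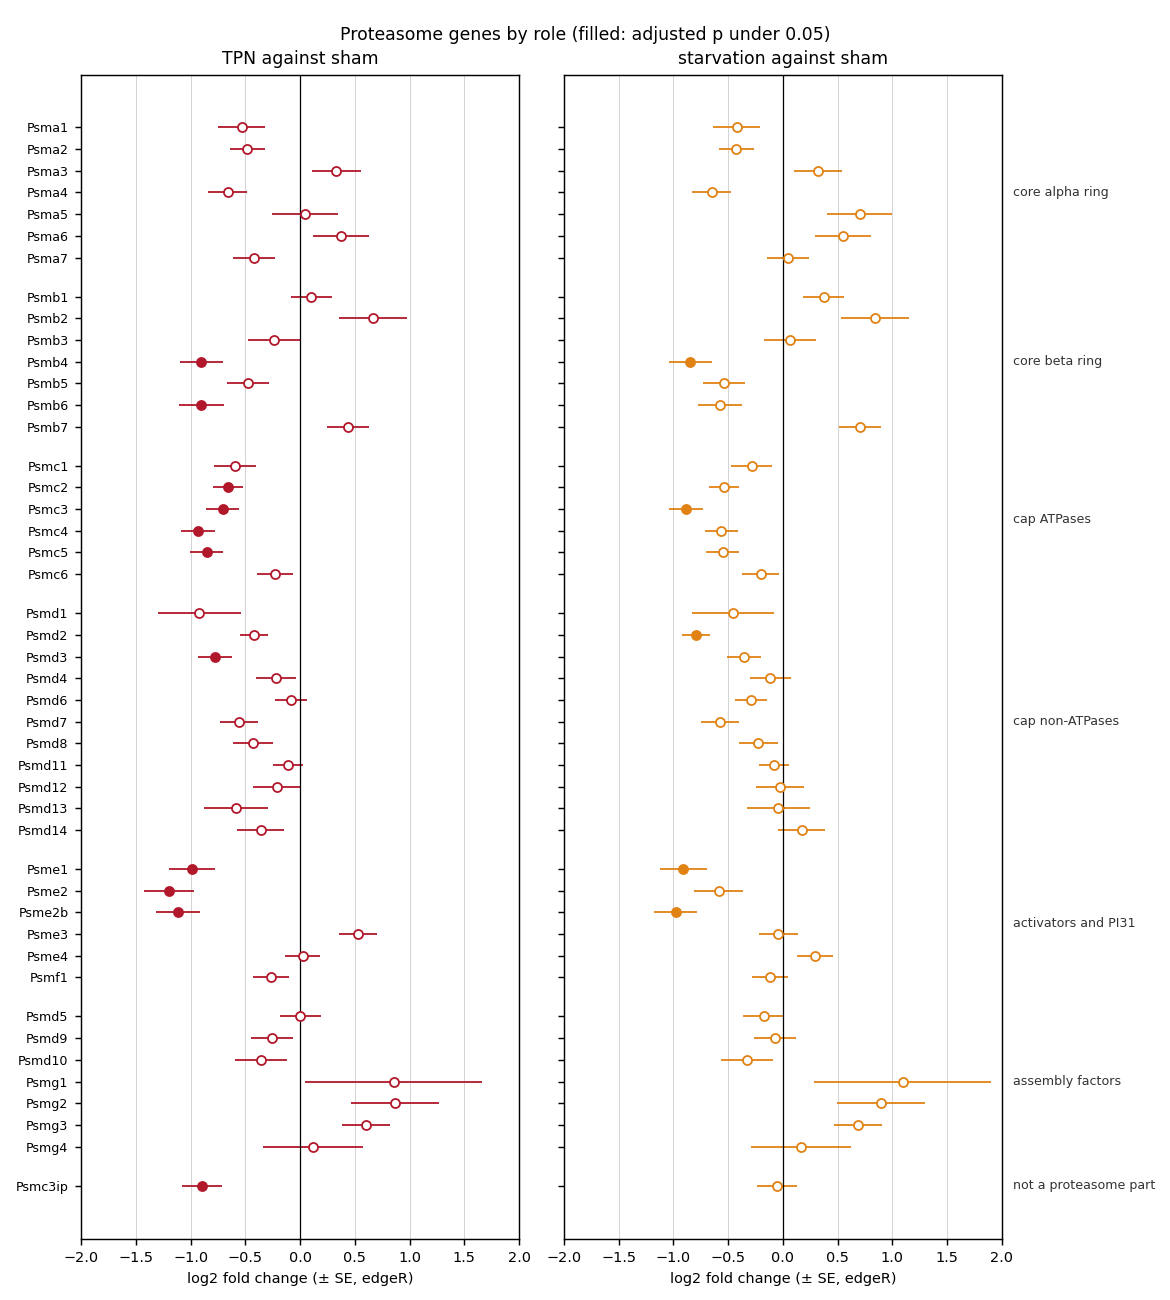
Log2 fold change ± SE (horizontal axis) of the 45 tested members, in rows grouped by role, for TPN against sham on the left and starvation against sham on the right. Filled points have an adjusted p under 0.05, 11 on the left and 5 on the right; all cap points on the left are below 0, of which Psmd6 and Psmd11 turn above 0 with library totals alone.

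The alpha ring had no member past the threshold in TPN or starvation (edgeR), while 3 were lower in TPN at an unadjusted p under 0.05, and 2 lower and 1 higher in starvation. DESeq2 called Psma4 lower in both, and limma voom in TPN. Psma4 came closest, with 29.3, 23.7 and 35.2 CPM in TPN, 26.6, 26.9 and 35.6 CPM in starvation and 47.0, 47.3 and 45.6 CPM in sham. Every sham library was above every other library. Its log2 fold change was -0.66 ± 0.18 (SE) in TPN, with an adjusted p of 0.0506, and -0.65 ± 0.18 in starvation, with an adjusted p of 0.0773. Psma2 had 24.4, 21.7 and 21.4 CPM in TPN, 24.1, 22.2 and 24.1 CPM in starvation and 28.5, 37.6 and 28.3 CPM in sham. The sham libraries were again the highest, and the adjusted p was 0.0885 in TPN and 0.153 in starvation. Psma5 had 5.52, 3.58 and 3.68 CPM in TPN, 6.30, 6.02 and 7.98 CPM in starvation and 4.12, 3.31 and 5.00 CPM in sham. Its starved libraries were the highest, with a log2 fold change of 0.70 ± 0.30 and an adjusted p of 0.197 against sham. Of the 50-base stretches of Psma5 transcripts, 49.1% occur at another locus, and how the authors counted reads with several matches is not given in the sources used here. Psma1 had 17.5, 12.6 and 16.1 CPM in TPN, 14.4, 20.1 and 15.6 CPM in starvation and 23.8, 17.7 and 25.6 CPM in sham, so that TPN lay below sham, at an adjusted p of 0.151 (edgeR), and starvation overlapped with it. Psma6 was at 6.10 to 6.91 CPM in TPN, 7.17 to 8.02 CPM in starvation and 3.73 to 6.18 CPM in sham, Psma3 at 13.6 to 16.7, 11.6 to 17.3 and 10.1 to 13.8 CPM, and Psma7 at 8.22 to 10.7, 11.7 to 14.1 and 12.3 to 13.2 CPM.

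The beta ring was divided. Psmb4, a structural subunit (chr3:94884093-94886961, minus strand), had 71.0, 66.9 and 82.5 CPM in TPN, 63.6, 65.8 and 100.4 CPM in starvation and 122, 151 and 139 CPM in sham. Every sham library was above every other one. Psmb4 fell by 0.90 ± 0.20 (log2, SE) in TPN, adjusted p = 0.0248 (edgeR), and by 0.84 ± 0.20 in starvation, adjusted p = 0.0478. Psmb6, which carries the caspase-like site (chr11:70525367-70527858, plus strand), had 32.5, 27.9 and 34.2 CPM in TPN, 31.4, 37.6 and 49.9 CPM in starvation and 52.1, 72.4 and 52.3 CPM in sham. The groups did not overlap with sham, although starvation replicate 3 came close to it. Psmb6 fell by 0.90 ± 0.21 in TPN, adjusted p = 0.0302 (edgeR), and was at -0.57 ± 0.20 in starvation, adjusted p = 0.138.

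The other 2 catalytic subunits did not pass the test in edgeR, and DESeq2 called Psmb7 higher in starvation against sham. Psmb5, which carries the chymotrypsin-like site, had 27.4, 24.2 and 26.4 CPM in TPN, 23.6, 20.7 and 30.7 CPM in starvation and 32.6, 44.3 and 31.9 CPM in sham. Both groups were below every sham library, with log2 fold changes of -0.48 ± 0.19 in TPN and -0.54 ± 0.19 in starvation and adjusted p values of 0.148 and 0.141 (edgeR). Of its 50-base stretches, 47.4% occur at another locus. Psmb7, which carries the trypsin-like site, had 22.5, 23.4 and 17.4 CPM in TPN, 23.9, 28.4 and 23.8 CPM in starvation and 15.4, 13.0 and 18.2 CPM in sham. The starved libraries were above every sham library and TPN replicate 3 lay within sham. The log2 fold change was 0.44 ± 0.19 in TPN, adjusted p = 0.178, and 0.71 ± 0.19 in starvation, adjusted p = 0.0743 (edgeR). Nek6 overlaps Psmb7 on the other strand by 405 exon bases. Its levels were 141, 146 and 126 CPM in TPN, 128, 175 and 252 CPM in starvation and 122, 134 and 140 CPM in sham. For Nek6 the log2 fold change in starvation against sham was 0.49 ± 0.22, adjusted p = 0.225 (edgeR). Without strand the reads of Psmb7 and Nek6 cannot be told apart where they overlap. Psmb2 had 7.66, 6.56 and 6.89 CPM in TPN, 10.5, 7.39 and 6.02 CPM in starvation and 5.69, 3.09 and 4.50 CPM in sham, so that all sham libraries were the lowest. Its log2 fold changes of 0.67 ± 0.31 and 0.85 ± 0.31 had adjusted p values of 0.202 and 0.145. Psmb1 was at 16.9 to 19.9 CPM in TPN, 19.5 to 27.0 CPM in starvation and 15.8 to 19.8 CPM in sham, and Psmb3 at 6.32 to 8.73, 8.13 to 11.2 and 7.66 to 10.7 CPM. Within the core, fitted values in TPN thus ran from -0.90 (Psmb4) to 0.67 (Psmb2), and 8 of 14 were below 0.

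The ATPase ring of the cap was the class with the lowest median in TPN. Psmc4 (chr7:28041707-28050101, minus strand) had 27.9, 25.4 and 26.7 CPM in TPN, 29.3, 34.3 and 40.1 CPM in starvation and 49.8, 46.9 and 56.1 CPM in sham. The 3 groups did not overlap, with TPN lowest and sham highest. Psmc4 fell by 0.93 ± 0.15 in TPN, adjusted p = 0.00885 (edgeR), the smallest of the members, and was at -0.56 ± 0.15 in starvation, adjusted p = 0.0725. Psmc5 (chr11:106256154-106263120, plus strand) had 72.4, 66.2 and 71.6 CPM in TPN, 77.6, 78.2 and 104 CPM in starvation and 117, 140.2 and 123 CPM in sham. It showed the same order without overlap, and fell by 0.86 ± 0.15 in TPN, adjusted p = 0.012 (edgeR), with -0.55 ± 0.15 in starvation, adjusted p = 0.0775.

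Psmc3 (chr2:91054009-91066369, plus strand) had 28.6, 30.0 and 30.6 CPM in TPN, 27.1, 30.0 and 21.8 CPM in starvation and 45.7, 54.3 and 45.8 CPM in sham. It was below sham in both groups, and fell by 0.71 ± 0.15 in TPN, adjusted p = 0.025, and by 0.89 ± 0.15 in starvation, adjusted p = 0.0232 (edgeR). Psmc2 (chr5:21785283-21803787, plus strand) had 30.5, 27.3 and 27.5 CPM in TPN, 28.7, 31.0 and 33.3 CPM in starvation and 41.3, 49.3 and 44.3 CPM in sham. All sham libraries were the highest, and Psmc2 fell by 0.66 ± 0.13 in TPN, adjusted p = 0.0194, with -0.54 ± 0.13 in starvation, adjusted p = 0.0587 (edgeR). Psmc1 had 16.6, 17.9 and 18.5 CPM in TPN, 20.3, 18.6 and 27.1 CPM in starvation and 22.9, 30.2 and 27.1 CPM in sham, with TPN below every sham library and an adjusted p of 0.0784 (edgeR). Psmc6 was the ATPase nearest to 0, at 26.9 to 28.8 CPM in TPN, 25.5 to 32.4 CPM in starvation and 28.1 to 39.9 CPM in sham, with a log2 fold change of -0.23 ± 0.17 in TPN.

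Among the non-ATPase subunits of the cap, Psmd3, a subunit of the lid (chr11:98682554-98695979, plus strand), had 47.4, 48.6 and 42.2 CPM in TPN, 60.3, 51.5 and 73.8 CPM in starvation and 80.6, 71.8 and 84.6 CPM in sham. TPN was below every other library and starvation overlapped with sham. Psmd3 fell by 0.78 ± 0.16 in TPN, adjusted p = 0.0183 (edgeR), and was at -0.35 ± 0.15 in starvation, adjusted p = 0.205. Psmd2, a large scaffold and ubiquitin receptor of the base (chr16:20651652-20663414, plus strand), had 67.4, 67.5 and 69.4 CPM in TPN, 46.6, 58.7 and 53.5 CPM in starvation and 87.1, 87.8 and 99.4 CPM in sham. Here starvation was lowest and TPN lay between starvation and sham, without overlap. Psmd2 fell by 0.79 ± 0.13 in starvation, adjusted p = 0.0193 (edgeR), and was at -0.42 ± 0.13 in TPN, adjusted p = 0.0687. Of its 50-base stretches, 17.8% occur at other loci.

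Psmd7, the lid partner of Psmd14, had 36.1, 47.3 and 43.2 CPM in TPN, 51.1, 36.5 and 37.7 CPM in starvation and 59.4, 68.9 and 58.5 CPM in sham, with every sham library highest and adjusted p values of 0.0729 and 0.0942 (edgeR). Psmd14, the enzyme that cuts ubiquitin off the substrate, had 14.6, 12.5 and 13.1 CPM in TPN, 18.8, 19.2 and 20.1 CPM in starvation and 20.7, 12.1 and 18.8 CPM in sham. Sham replicate 2 lay below every TPN library, and the log2 fold change in TPN was -0.36 ± 0.22, adjusted p = 0.316. Without sham replicate 2 and starvation replicate 3 it was -0.51 ± 0.13, adjusted p = 0.0177 (edgeR). Psmd4, a ubiquitin receptor, was at 14.8 to 19.7 CPM in TPN, 16.5 to 21.4 CPM in starvation and 18.5 to 21.7 CPM in sham, with log2 fold changes of -0.22 ± 0.19 and -0.12 ± 0.19. Psmd1 had 6.59, 5.72 and 7.69 CPM in TPN, 8.22, 9.92 and 9.60 CPM in starvation and 7.75, 21.7 and 8.66 CPM in sham. Its fitted -0.92 ± 0.38 in TPN, the lowest of the non-ATPase subunits, was -0.30 ± 0.23, adjusted p = 0.474 (edgeR), without sham replicate 2. Htr2b, a serotonin receptor gene that overlaps Psmd1 on the other strand, had 16.9 CPM in the same library and 0.954 to 3.28 CPM in the other 8, and the labels name no step that marks the strand. The other 5 non-ATPase subunits, Psmd6, Psmd8, Psmd11, Psmd12 and Psmd13, had fitted values of -0.59 (Psmd13) to -0.08 (Psmd6) in TPN and none passed the test. Of these, Psmd13 had 21.3, 15.3 and 18.1 CPM in TPN, 18.6, 23.1 and 38.5 CPM in starvation and 23.3, 36.0 and 23.2 CPM in sham, with starvation replicate 3 and sham replicate 2 highest. Psmd11 overlapped between all groups, at 34.1 to 42.1 CPM in TPN, 36.9 to 40.5 CPM in starvation and 37.4 to 45.1 CPM in sham.

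**Figure D3:**
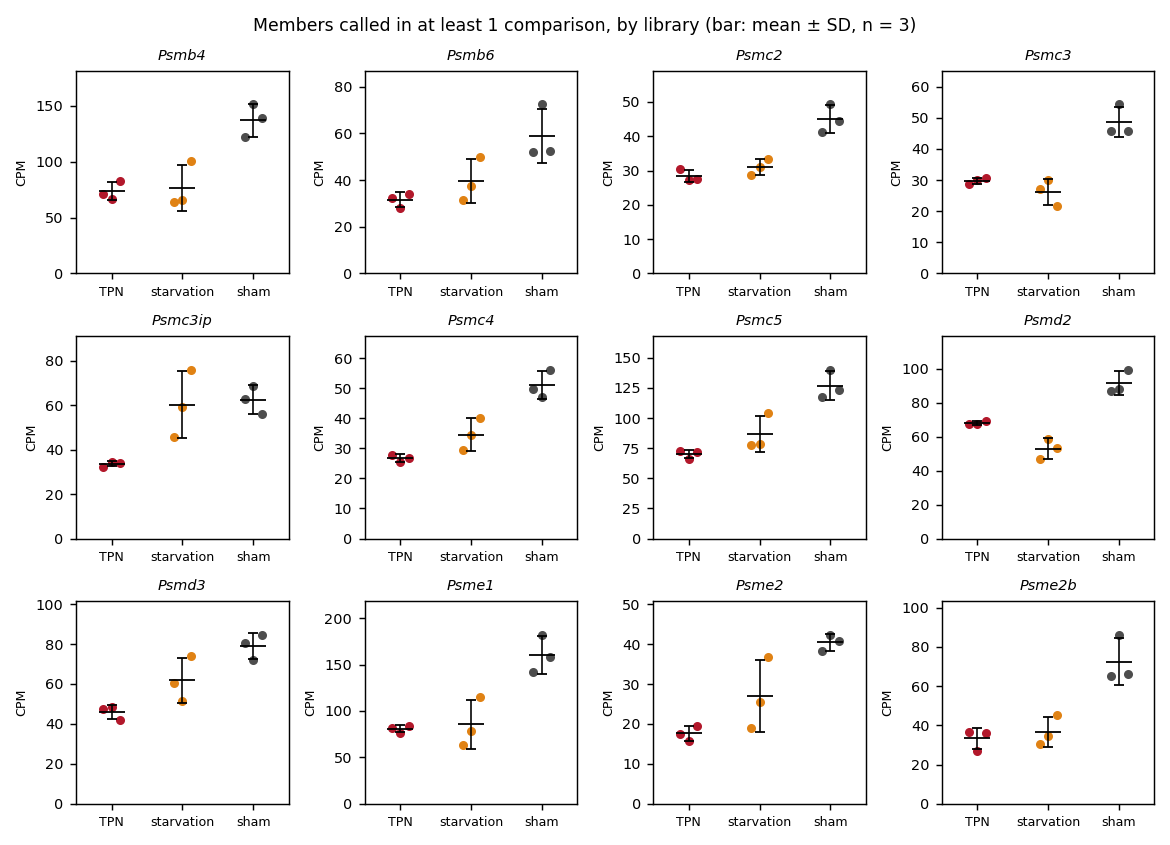
CPM (vertical axes, from 0) of the 12 members with an adjusted p under 0.05 in at least 1 of the 3 comparisons, 1 point per library, with mean ± SD over 3 libraries. For 11 genes the sham libraries lie above the TPN libraries at an adjusted p under 0.05; Psmd2 passed in starvation against sham and not in TPN against sham, and Psmc3ip in TPN against sham and not in starvation against sham.

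Among the activators the alpha and beta subunits of PA28 fell in TPN, and PA28 gamma (Psme3, below) did not. Psme1 (chr14:55578123-55581529, plus strand), the alpha subunit of PA28, had 81.8, 76.4 and 84.1 CPM in TPN, 63.6, 78.1 and 115 CPM in starvation and 142, 182 and 158 CPM in sham. Every sham library was highest. Psme1 fell by 0.99 ± 0.21 in TPN, adjusted p = 0.0238, and by 0.91 ± 0.21 in starvation, adjusted p = 0.0488 (edgeR). Psme2 (chr14:55587441-55591113, minus strand), the beta subunit, had 17.6, 15.9 and 19.5 CPM in TPN, 18.9, 25.4 and 36.8 CPM in starvation and 38.2, 42.4 and 40.8 CPM in sham. It had the lowest log2 fold change of the members in TPN, where it fell by 1.20 ± 0.23, adjusted p = 0.0155, and was at -0.58 ± 0.22 in starvation, adjusted p = 0.16 (edgeR).

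Psme2b (chr11:48945354-48946190, minus strand), a close copy of Psme2, had 36.7, 27.1 and 36.3 CPM in TPN, 30.6, 34.3 and 45.2 CPM in starvation and 65.1, 86.1 and 66.0 CPM in sham. It fell by 1.12 ± 0.20 in TPN, adjusted p = 0.012, and by 0.98 ± 0.20 in starvation, adjusted p = 0.0337 (edgeR). Because 69.3% of the 50-base stretches of Psme2b and 28.3% of those of Psme2 occur at another locus, the division of reads between these copies is uncertain. With either copy left out, 10 of 44 members fell in TPN and the median log2 fold change of the activators and PI31 was -0.27 in TPN and -0.12 in starvation, against -0.63 and -0.35 with both.

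Psme3, the nuclear activator PA28 gamma, had 131, 133 and 121 CPM in TPN, 98.5, 92.5 and 68.8 CPM in starvation and 102, 73.1 and 92.4 CPM in sham. The 3 TPN libraries were above all 6 others. The log2 fold change in TPN was 0.53 ± 0.18 against sham, adjusted p = 0.0907, and 0.57 ± 0.18 against starvation, adjusted p = 0.0921, neither past the threshold (edgeR), while DESeq2 called both higher. Without sham replicate 2 and starvation replicate 3 these were 0.45 ± 0.10, adjusted p = 0.00803, and 0.47 ± 0.10, adjusted p = 0.00921. Psme4, the activator PA200, had 33.8, 33.4 and 36.1 CPM in TPN, 37.6, 37.7 and 49.5 CPM in starvation and 39.5, 29.9 and 32.4 CPM in sham, with each group overlapping with sham. Psmf1 had 21.4, 16.6 and 19.3 CPM in TPN, 22.7, 19.4 and 21.6 CPM in starvation and 21.1, 25.5 and 22.6 CPM in sham, with log2 fold changes of -0.27 ± 0.16 and -0.12 ± 0.16.

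The assembly factors had no member past the threshold in any of the 3 comparisons (edgeR, DESeq2 or limma voom), and at an unadjusted p under 0.05 edgeR gave Psmg3 alone, higher in TPN and in starvation against sham. Psmg3, a chaperone of the alpha ring, had 30.4, 27.9 and 22.3 CPM in TPN, 22.5, 29.2 and 33.7 CPM in starvation and 18.6, 13.7 and 20.7 CPM in sham. All sham libraries were the lowest, with log2 fold changes of 0.60 ± 0.22 in TPN, adjusted p = 0.116, and 0.68 ± 0.22 in starvation, adjusted p = 0.112. An annotated gene on the same strand, Gm26938, overlaps Psmg3 and had 37.4, 32.2 and 27.4 CPM in TPN, 26.6, 34.2 and 34.6 CPM in starvation and 24.4, 15.9 and 28.4 CPM in sham. Psmg2, the partner of Psmg1 in an alpha-ring chaperone, had 3.38, 3.22 and 4.32 CPM in TPN, 4.63, 4.33 and 2.20 CPM in starvation and 2.36, 1.28 and 2.33 CPM in sham, adjusted p = 0.202 in TPN. Psmg1 had 2.06, 2.86 and 2.00 CPM in TPN, 3.11, 2.96 and 2.08 CPM in starvation and 1.57, 0 and 2.17 CPM in sham. With 42 counts in sham and 74 in TPN, its log2 fold change of 0.85 ± 0.81 was not detectable as a difference at this depth. Psmg4 was at 1.19 to 2.55 CPM in TPN, 1.16 to 2.32 CPM in starvation and 1.25 to 1.92 CPM in sham. The chaperones of the cap base, Psmd5, Psmd9 and Psmd10, had log2 fold changes of 0.00 ± 0.19, -0.26 ± 0.19 and -0.36 ± 0.24 in TPN, and their groups overlapped with sham. Psmd10 had 11.7, 11.4 and 15.5 CPM in TPN, 14.1, 11.9 and 13.7 CPM in starvation and 15.2, 21.8 and 12.8 CPM in sham.

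**Figure D4:**
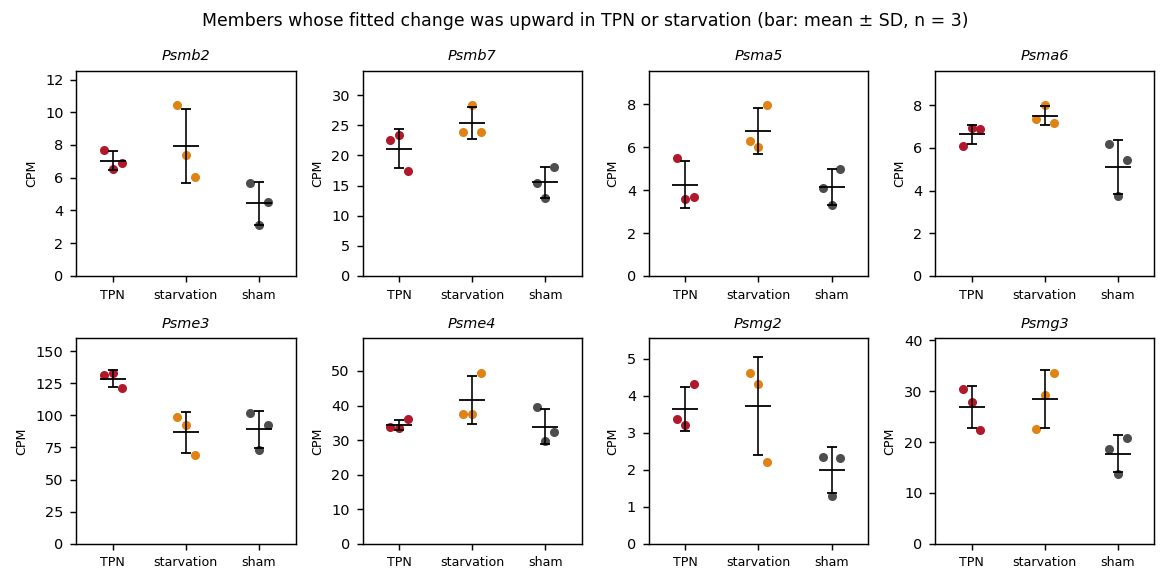
CPM (vertical axes, from 0) of 8 members whose fitted log2 fold change was above 0 in TPN or in starvation against sham, 1 point per library, with mean ± SD over 3 libraries. The 8 are a choice: 13 members were above 0 in TPN and 14 in starvation. Psmg1, highest in starvation at 1.10, is among those not shown. In all 9 libraries none passed in edgeR, while DESeq2 called Psme3 higher in TPN against sham and Psmb7 higher in starvation against sham; Psme3 is highest in TPN, Psmb7 and Psma5 are highest in starvation, and Psmb2 and Psmg3 are lowest in sham.

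In TPN against starvation, Psmc3ip alone fell, 1 of 45 members beside 3.9% of all genes tested, and none rose, beside 1.94% of genes. At an unadjusted p under 0.05, 6 of the 45 members were lower and 2 higher in TPN, where 14.3% and 8.73% of genes were, so neither count was above the share over all genes. DESeq2 called 1 lower and 1 higher, and limma voom 1 lower and 0 higher, while DESeq2 called more genes than edgeR over the whole table. The TPN libraries lay below the starved ones without overlap for 12 members, beside 18.3% of genes, and above them for 3, Psmd2, Psmd6 and Psme3, beside 15.3% of genes. The median log2 fold change of the members was -0.15, with 37 of 45 below 0. Over all genes the median was -0.03, with 7696 of 14668 below 0. The size of the member median depended on the scaling, as given in the closing section. Psmc3ip (chr11:101091823-101095436, minus strand) had 32.3, 34.3 and 34.2 CPM in TPN, 45.9, 59.0 and 76.0 CPM in starvation and 62.9, 68.8 and 55.9 CPM in sham. TPN was below every other library, and starvation and sham overlapped. The log2 fold change was -0.90 ± 0.18 in TPN against sham, adjusted p = 0.0202, -0.05 ± 0.18 in starvation against sham, adjusted p = 0.891, and -0.84 ± 0.18 in TPN against starvation, adjusted p = 0.0304 (edgeR). Mlx, a transcription factor gene of sugar sensing that overlaps the end of Psmc3ip on the other strand by 385 bases, had 68.8, 73.5 and 70.5 CPM in TPN, 87.8, 109.8 and 142 CPM in starvation and 125, 131 and 116 CPM in sham. It fell by 0.80 ± 0.17 in TPN against sham, adjusted p = 0.0249, and without strand the reads of the pair cannot be told apart where they overlap. For the other 44 tested members a p that misses the threshold does not show that TPN and starvation were alike: their fitted values ran from -0.66 (Psma5) to 0.57 (Psme3).

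The members that fell were among those with the higher levels. Of the 23 members with the higher mean log2 CPM (4.60 to 6.77), 11 fell in TPN (47.8%) and the median log2 fold change was -0.66, while of the 4808 genes of the same level range 7.63% were lower past the threshold, with a median of -0.05. The 11 include Psmc3ip, which is no proteasome part. Of the 22 members with the lower mean log2 CPM (0.93 to 4.49), 0 fell and the median was -0.15, while of the 6542 genes of that range 2.02% were lower past the threshold, with a median of 0.07, so a count of 0 among 22 is near the share of that range. The median SE was 0.18 in the upper and 0.22 in the lower members, so the lower ones were less precisely measured. Per kilobase of exon, levels within a ring were uneven: in TPN they ran from 3.38 CPM per kb (Psmb3) to 37.7 CPM per kb (Psmb4) in the beta ring, and in sham from 3.68 CPM per kb (Psmb2) to 70.4 CPM per kb (Psmb4). In the ATPase ring they ran from 5.65 (Psmc2) to 50.3 CPM per kb (Psmc5) in TPN and from 8.94 (Psmc2) to 91.0 CPM per kb (Psmc5) in sham. The length is that of all annotated exons of a gene together, 5031 bases for Psmc2 and 1394 for Psmc5. Which transcripts were present was not tested, so these ratios depend on the annotation. Before division by length, sham means were 45.0 CPM for Psmc2 and 127 CPM for Psmc5. Of the 50-base stretches of Psmb3, 17.8% occur at other loci. The 15 tested members with CCGGAAG in the promoter window had a median log2 fold change of -0.21 in TPN against sham. Of these 2 fell, the subunit Psmc2 and Psmc3ip. The 6 with TGACNNNGC had a median of -0.24, with 1 that fell. Over all 45 tested members the median was -0.36 and 11 fell, beside 5.12% lower over all genes. The 45 include members without a promoter window, so they are not a like set. Psmb4, Psmc4, Psmc5, Psme1, Psme2 and Psme2b, all of which fell, held none of the 3 patterns in the window. The window of Psme2b did not hold the first bases of an annotated transcript of the gene, so it may not be its promoter. Psmc3 and Psmd3, which also fell, had no window and were not searched.

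The 3 immunoproteasome subunits left out of the member list were also lower. Psmb8 had 50.4, 38.5 and 53.6 CPM in TPN, 62.8, 72.7 and 118 CPM in starvation and 132, 155 and 136 CPM in sham, and fell by 1.57 ± 0.24 in TPN, adjusted p = 0.00698 (edgeR). Psmb9 fell by 1.20 ± 0.21, adjusted p = 0.012, and Psmb10 by 1.30 ± 0.23, adjusted p = 0.0119. In starvation their log2 fold changes were -0.74, -0.75 and -0.96, with adjusted p values of 0.109, 0.0816 and 0.0516, none past the threshold in edgeR, while all 3 were lower at an unadjusted p under 0.05, DESeq2 called Psmb9 and Psmb10, and limma voom called Psmb10.

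Of 30 other genes of the ubiquitin and proteasome pathway, 29 were in the table and all 29 were tested. In TPN against sham 1 rose and 3 fell, beside 3.48% and 5.12% of all genes tested. Ecpas, a scaffold that binds the proteasome, had 42.4, 37.3 and 41.2 CPM in TPN, 37.7, 37.7 and 44.9 CPM in starvation and 27.2, 18.9 and 28.3 CPM in sham, and rose by 0.70 ± 0.18, adjusted p = 0.0408 (edgeR). Adrm1, the third ubiquitin receptor of the cap, had 41.5, 46.7 and 43.8 CPM in TPN and 65.0, 72.1 and 74.7 CPM in sham, and fell by 0.68 ± 0.16, adjusted p = 0.0304. Vcp, the ATPase that pulls ubiquitinated proteins out of complexes, fell by 0.72 ± 0.18, adjusted p = 0.0385, and its cofactor Nploc4 by 0.51 ± 0.12, adjusted p = 0.0378. In starvation against sham 1 of the 29 fell and 0 rose, beside 1.14% and 2.55% of all genes, with 9 lower and 4 higher at an unadjusted p under 0.05, beside 10.4% and 13%. Of these counts, the 1 that rose in TPN and the 4 higher in starvation are near the shares over all genes. DESeq2, which called more genes than edgeR over the whole table, called 4 lower and 3 higher in starvation, and limma voom 0 in either direction. Pomp, the maturation chaperone of the core, was at 22.7, 19.1 and 18.3 CPM in TPN, 18.2, 21.7 and 27.4 CPM in starvation and 27.9, 43.7 and 28.9 CPM in sham, with -0.74 ± 0.23 in TPN, adjusted p = 0.0719. Nfe2l1, whose protein activates proteasome genes when proteasome activity is low, was at -0.26 ± 0.14 in TPN, adjusted p = 0.271, and -0.49 ± 0.14 in starvation, adjusted p = 0.0914. The median over the list was -0.09 in TPN and -0.22 in starvation.

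These calls rested on few libraries. Each of the 11 in TPN against sham was lost when TPN replicate 1 was left out (adjusted p from 0.0502 to 0.119, edgeR), when TPN replicate 2 was (0.0575 to 0.132) and when TPN replicate 3 was (0.0531 to 0.0964). Over the whole table the share of genes lower was then 0.836% to 0.891%. The log2 fold changes of the 11 stayed between -1.27 and -0.63 in these fits. Leaving out sham replicate 1, 2 or 3 kept 7, 8 and 4 of the 11, beside 2.31%, 4% and 1.69% of genes lower. Psmc4, Psmc5 and Psme2b were kept in 6 of the 9 fits with 1 library less. Without starvation replicate 3 the count of members lower was 15, beside 11.4% of genes. Without starvation replicate 2 it was 10, beside 2.89% of genes. In starvation against sham, 0 members were lower without TPN replicate 1, TPN replicate 2, starvation replicate 2 or sham replicate 3, beside 0.0669% to 0.227% of genes. There was 1 without TPN replicate 3 (0.255% of genes) or sham replicate 1 (0.413%). There were 2 without starvation replicate 1 (0.539%) or sham replicate 2 (0.663%), and 13 without starvation replicate 3 (5.31%). The counts over the whole table thus moved as well. The adjusted p of the 5 genes called in all libraries reached 0.157 without starvation replicate 2. In TPN against starvation, Psmc3ip was not called without TPN replicate 1 (adjusted p = 0.126), TPN replicate 2 (0.121), TPN replicate 3 (0.123), starvation replicate 2 (0.0775) or sham replicate 1 (0.0569).

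Without sham replicate 2 and starvation replicate 3 together, more genes passed over the whole table and among the members. In TPN against sham 16 of 45 members fell, beside 14.8% of genes, and Psme3 rose, beside 15% of genes. Those that fell were the 11 named above with Psma1, Psma4, Psmc1, Psmd2 and Psmd14. In starvation against sham 13 fell, beside 9% of genes, and Psmb2 and Psmb7 rose, beside 10.9% of genes. In TPN against starvation Psmc3ip and Psmd14 fell, beside 11.5% of genes, and Psmd2 and Psme3 rose, beside 10.1% of genes. Psmd2 was then at 0.41 ± 0.12 in TPN against starvation, adjusted p = 0.0323 (edgeR). The medians of the members were -0.25 in TPN against sham and -0.14 in starvation against sham, beside 0.07 and 0.01 over all genes.

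Markers of tissue layers also differed in level between the groups. Summed villus epithelium markers were 6152 to 7284 CPM in TPN, 8563 to 20252 CPM in starvation and 11991 to 13115 CPM in sham, and 2 of the 8 fell in TPN against sham. Summed fibroblast markers were 203 to 298 CPM in TPN, 154 to 295 CPM in starvation and 405 to 1232 CPM in sham, with 3 of 8 that fell in TPN and 2 of 8 in starvation. Over all genes tested 5.12% and 1.14% were lower in these 2 comparisons. In the villus tip, smooth muscle, crypt and cycling, immune and pancreatic acinar lists 0 of 8 passed against sham in either group. Summed crypt and cycling markers were 742 to 832 CPM in TPN, 203 to 825 CPM in starvation and 569.95 to 1215 CPM in sham, lowest in starvation replicate 3 and, within sham, in sham replicate 2. Summed immune markers were 1938 to 2296 CPM in TPN, 879 to 1912 CPM in starvation and 1632 to 2545 CPM in sham, with the same 2 libraries lowest in their groups. Summed pancreatic acinar markers, of a neighbouring organ, were 300.2, 16544 and 16.02 CPM in TPN, 2138, 17.0 and 19.7 CPM in starvation and 3220 CPM in sham replicate 1 with 16.3 and 16.7 CPM in the other 2. The part of these tissue layers in the levels of the proteasome genes was not tested.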

How the data were processed

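The deposited counts are raw whole-number reads per gene symbol, made by the authors. Tools listed in the submitters' processing notes are STAR 2.7.2e, featureCounts 2.0.0, DESeq2 1.32.0, cutadapt 2.9 and FastQC 0.11.8, and the builds GRCm38 and mm10. For the annotation, the strand setting and reads with several matches, the choice is not given in the sources used here. A further 9 count columns matched no sample and were not used. Coordinates and lengths came from GENCODE release M21 on GRCm38, promoter sequences from RefSeq.

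Of 21868 genes, filterByExpr kept 14668. They were fitted with edgeR 4.0.16 in R 4.3.3 (TMM factors, quasi-likelihood, 1 mean per group over 9 libraries, 6 residual degrees of freedom), with Benjamini-Hochberg adjustment over all genes tested. Each SE is the log2 fold change divided by the square root of F. The fit was tested on simulated counts. No pair of replicates agreed within sampling noise (chi-square per gene 7.74 to 118), and counting error is only part of the spread.

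Every row found by the symbol rule may be named. Members and lists were chosen with earlier results of these data known. For 1 gene counted in the pathway list, values are not given. Alternatives were DESeq2 1.42.0, limma 3.58.1 (voom), other scalings and filters, fits of fewer libraries, and a replicate block. Same-numbered libraries correlated at -0.3 to 0.378, so the numbers were not taken to pair them. Leaving out one of the copies Psme2 and Psme2b, and the core sum without Psmb4, were chosen after seeing the data. Sham replicate 2 and starvation replicate 3 were left out together because of their marker levels in these same data.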

Additional observations from a re-analysis of the deposited data

How the results depend on the processing

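In TPN against sham the number of members higher was 0, and 1 with DESeq2, with only the 2 groups in the fit and without the 2 libraries that stand apart (0 to 1 with 1 library less). The number lower was 11, 7 with the replicate number as a block, and 0 to 15 with 1 library less. Genes called over the table were 1261, against 2421 (DESeq2), 2774 (only the 2 groups), 556 (block), 4425 (without the 2 libraries) and 216 to 3182 (1 library less). With library totals the medians were -0.19 (members), -0.23 (alpha ring), -0.039 (beta ring), -0.49 (ATPases), -0.44 (activators) and 0.30 (assembly). The ATPase median was -0.60 with upper quartile factors and -0.56 without the 2 libraries, the alpha ring -0.19 with no filter, where untested genes enter, and the assembly median 0.31 without the 2 libraries and -0.11 to 0.31 with 1 library less. In starvation against sham, 5 members were lower: 10 with DESeq2, 3 with RLE factors, 0 with only the 2 groups in the fit, 0 under the block, 13 without the 2 libraries and 0 to 13 with 1 library less. Members higher were 1 with DESeq2 and 2 without the 2 libraries. Genes called were 541, against 1654 (DESeq2), 353 (library totals), 2 (only the 2 groups), 71 (block), 2949 (without the 2 libraries) and 32 to 1739 (1 library less). The medians with 1 library less ran from -0.32 to -0.085 (members), -0.66 to -0.46 (ATPases), -0.53 to -0.27 (activators) and -0.010 to 0.37 (assembly, 0.39 without the 2 libraries). In TPN against starvation, members higher were 1 with DESeq2 and 2 without the 2 libraries. Members lower were 0 with only the 2 groups in the fit, 0 under the block, 2 without the 2 libraries and 0 to 2 with 1 library less. Genes called were 857, against 1791 (DESeq2), 545 (only the 2 groups), 386 (block), 3205 (without the 2 libraries) and 124 to 1248 (1 library less). The ATPase median, -0.22, was -0.13 with upper quartile factors, -0.044 with library totals, -0.064 without the 2 libraries and -0.27 to -0.049 with 1 library less; the member median was -0.0050 and the assembly median 0.060 with library totals, and the assembly median -0.17 to 0.042 with 1 library less. Over all 45 members, the sign of the log2 fold change turned in at least 1 alternative for 6 members in TPN against sham, 10 in starvation against sham and 19 in TPN against starvation, none of them past the threshold on either side; the value farthest from 0 among them was that of Psmd1 in starvation (-0.45 in all 9 libraries). Those among the members called or fixed to be named follow. In TPN against sham, Psme4 (0.02) was -0.017 without the 2 libraries and -0.062 to 0.14 with 1 library less. In starvation against sham, Psme3 (-0.04) was 0.025 with library totals and -0.17 to 0.074 with 1 library less, and Psmc3ip (-0.05) was -0.28 to 0.11 with 1 library less. In TPN against starvation, with library totals Psmb4 was 0.14, Psmc2 0.036, Psmd4 0.071, Psme1 0.13 and Psme2b 0.051, and with upper quartile factors Psmb4 was 0.039 and Psme1 0.016. Without the 2 libraries Psmb4 was 0.23, Psmd4 0.064, Psme1 0.23 and Psme2b 0.085. With 1 library less Psmb4 ran from -0.18 to 0.24, Psmb5 from -0.060 to 0.29, Psmd4 from -0.23 to 0.082, Psme1 from -0.26 to 0.24 and Psme2b from -0.25 to 0.095. The causes of these differences were not tested. Under the replicate block Psmb6, Psmc2, Psmc3 and Psmd3 were the TPN calls lost. Members under about 5 CPM had few counts, and a difference in them was hard to detect.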
